A study of Mus musculus with 15 samples.

Results

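Intestinal stem cell markers are genes whose RNA is concentrated in the proliferating cells at the base of the crypts of the small intestine. The set described here holds Lgr5, Olfm4, Ascl2, Smoc2, Axin2, Sox9 and Cdca7, chosen by name as genes known from crypt base cells, with Aqp4 and Msi1 set beside them. All 9 were measured, out of 19938 genes tested, and each was read by 1 probe set that carries its symbol alone. Values are log2 of the deposited array intensity after quantile normalization, so a difference of 1 is a doubling of the intensity.

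Crypt base columnar cells renew the intestinal epithelium, and Wnt signals together with R-spondins, which bind Lgr5 and its relatives, keep them dividing. Notch signals from neighbouring Paneth cells hold them out of the secretory fates, and BMP signals from the villus side oppose them. RANKL, the TNF-family ligand of the receptor RANK, acts on the follicle-associated epithelium to make M cells, the antigen-sampling cells that are descended from crypt stem cells.

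The series compared small-intestinal epithelial cells of mice without treatment and after RANKL, on 15 Affymetrix arrays in 5 groups of 3. Every group came from wild-type BALB/c mice of 10 weeks of age, and EDTA (30 mM, 10 min) was used to detach the epithelium. The control group received no agent. The other groups received a GST-RANKL fusion protein into the peritoneum 2 times a day for 1, 2, 3 or 4 days. No group given GST or an injection alone was analysed here, so the effects of injection, of GST and of RANKL cannot be told apart. The titles of the RANKL arrays carry the letters VE, which no label explains, and no source says how much of the crypt the EDTA step released. Nor is it stated whether each array had its own mouse, and p-values then describe only how far these samples spread. The preparation is a mixture of cells, in which fewer cells of a type and less RNA per cell cannot be told apart.

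The labelled tissue was checked against its markers. The brush border gene Vil1 had a control mean of 12.64 and the alkaline phosphatase gene Alpi one of 12.63, and Lyz1, the lysozyme of Paneth cells at the crypt base, had one of 13.71. The background of the arrays was read from 6 genes of the Y chromosome, which lay between 4.88 and 5.50 on arrays where Xist, the RNA of the inactive X chromosome, lay between 11.93 and 12.37. The lowest value of any stem cell marker on any array was 6.83, for Ascl2. Median intensity per array ran from 147 to 167. RANKL day 1 replicate 2 had the highest median and an interquartile range of 1.95 on the log2 scale, against 2.26 to 2.55 on the other arrays. RANKL day 2 replicate 3 was the lowest of the 15 arrays for Lgr5, Olfm4, Sox9 and Cdca7, and marker results that change without it are given with and without it.

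The promoters shown are those of the 4 markers found in the RefSeq table. Olfm4 and Ascl2 had fitted changes above 0 on each day, and Axin2 and Cdca7 stayed close to 0. Each sequence is the 250 bases before the gene's start from RefSeq on GRCm38.p6, a later build than the mm9 named in the submitters' processing notes. Capitals mark matches to the letters of the RBPJ site TGGGAA or of the NF-kB site GGNNNTTCC on either strand.
Olfm4, chr14:80000052-80000301, plus strand: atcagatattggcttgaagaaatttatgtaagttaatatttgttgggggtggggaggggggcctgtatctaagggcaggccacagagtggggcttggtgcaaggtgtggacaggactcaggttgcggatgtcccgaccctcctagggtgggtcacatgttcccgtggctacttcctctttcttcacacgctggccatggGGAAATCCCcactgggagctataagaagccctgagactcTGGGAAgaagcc
Ascl2, chr7:142969265-142969514, minus strand: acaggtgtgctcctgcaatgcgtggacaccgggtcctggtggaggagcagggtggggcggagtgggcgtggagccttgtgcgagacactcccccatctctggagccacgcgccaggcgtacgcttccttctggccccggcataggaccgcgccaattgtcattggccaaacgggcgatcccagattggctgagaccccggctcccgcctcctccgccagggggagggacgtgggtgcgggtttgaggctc
Axin2, chr11:108920099-108920348, plus strand: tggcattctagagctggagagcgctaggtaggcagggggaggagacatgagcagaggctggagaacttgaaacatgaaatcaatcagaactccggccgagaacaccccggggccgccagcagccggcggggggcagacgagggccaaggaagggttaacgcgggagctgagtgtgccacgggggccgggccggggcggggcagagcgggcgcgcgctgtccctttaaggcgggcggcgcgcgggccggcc
Cdca7, chr2:72475969-72476218, plus strand: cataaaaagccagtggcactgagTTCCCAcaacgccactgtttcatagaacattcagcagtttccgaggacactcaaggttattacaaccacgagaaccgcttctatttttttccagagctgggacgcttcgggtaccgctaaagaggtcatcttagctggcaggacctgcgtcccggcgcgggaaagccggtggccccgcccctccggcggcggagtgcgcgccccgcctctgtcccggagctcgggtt
In the Olfm4 window the RBPJ letters began 12 bases before the start on the strand of the gene, and the NF-kB letters lay 51 bases before it on the opposite strand. The Cdca7 window held the RBPJ letters on the opposite strand, 227 bases before the start. For TCF/LEF sites the search took CTTTGAA as well as the form CTTTGAT, and likewise both CTTTGTA and its variant CTTTGTT. None of these and no E-box CAGCTG was found in the 4 windows, on either strand. Of 32851 windows of the same length, 14.8% held a TCF/LEF match, 21.6% an RBPJ match, 15.7% an NF-kB match and 13% the E-box. A match describes the letters only, and a window without one says nothing of the factor.

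Of the 9 markers, 3 rose after RANKL, and none fell on any day. Apart from Aqp4 and Msi1, which were set beside the crypt base genes, only Ascl2 was called, on day 1 alone. Aqp4, a water channel gene, rose on all 4 days and was 2.62-fold above control on day 2. Msi1, whose product binds messenger RNA and controls its translation, rose on days 1 to 3 by 1.68- to 1.93-fold. Ascl2, the basic helix-loop-helix factor that sets crypt stem cell identity, rose 1.53-fold on day 1. Lgr5 itself was not called on any day. A gene was called where limma's adjusted p was under 0.05, with Benjamini-Hochberg adjustment over all 19938 genes.

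Counted by day, 3 of 9 rose on day 1, 2 on day 2, 2 on day 3 and 1 on day 4. On days 2 to 4 every call was of Aqp4 or Msi1. Of all genes, 2.00% were called higher on day 1, 1.52% on day 2, 1.72% on day 3 and 0.818% on day 4. The shares called lower were 1.94%, 1.05%, 1.24% and 0.0903%. An unadjusted p under 0.05 was found for 4, 4, 6 and 5 of the 9, and for 14.9%, 11.9%, 16.2% and 9.66% of all genes in either direction. The median fitted change of the 9 was 0.25 on day 1, 0.36 on day 2, 0.59 on day 3 and 0.38 on day 4, against medians of -0.01, -0.02, -0.01 and 0.01 over all genes. All RANKL arrays lay above all control arrays for 4 markers on day 1, 2 on day 2, 6 on day 3 and 6 on day 4. The same held for 6.08%, 8.09%, 12.3% and 12.1% of all genes. Aqp4 and Msi1 were among these markers on each day and were the only ones on day 2. The F test over the 4 days called Aqp4 (adjusted p = 5.81e-05) and Msi1 (adjusted p = 0.0130), where it called 3.60% of all genes. The 4 comparisons share the same 3 control arrays, so the values of 1 day are not independent of those of another.

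**Figure D1:**
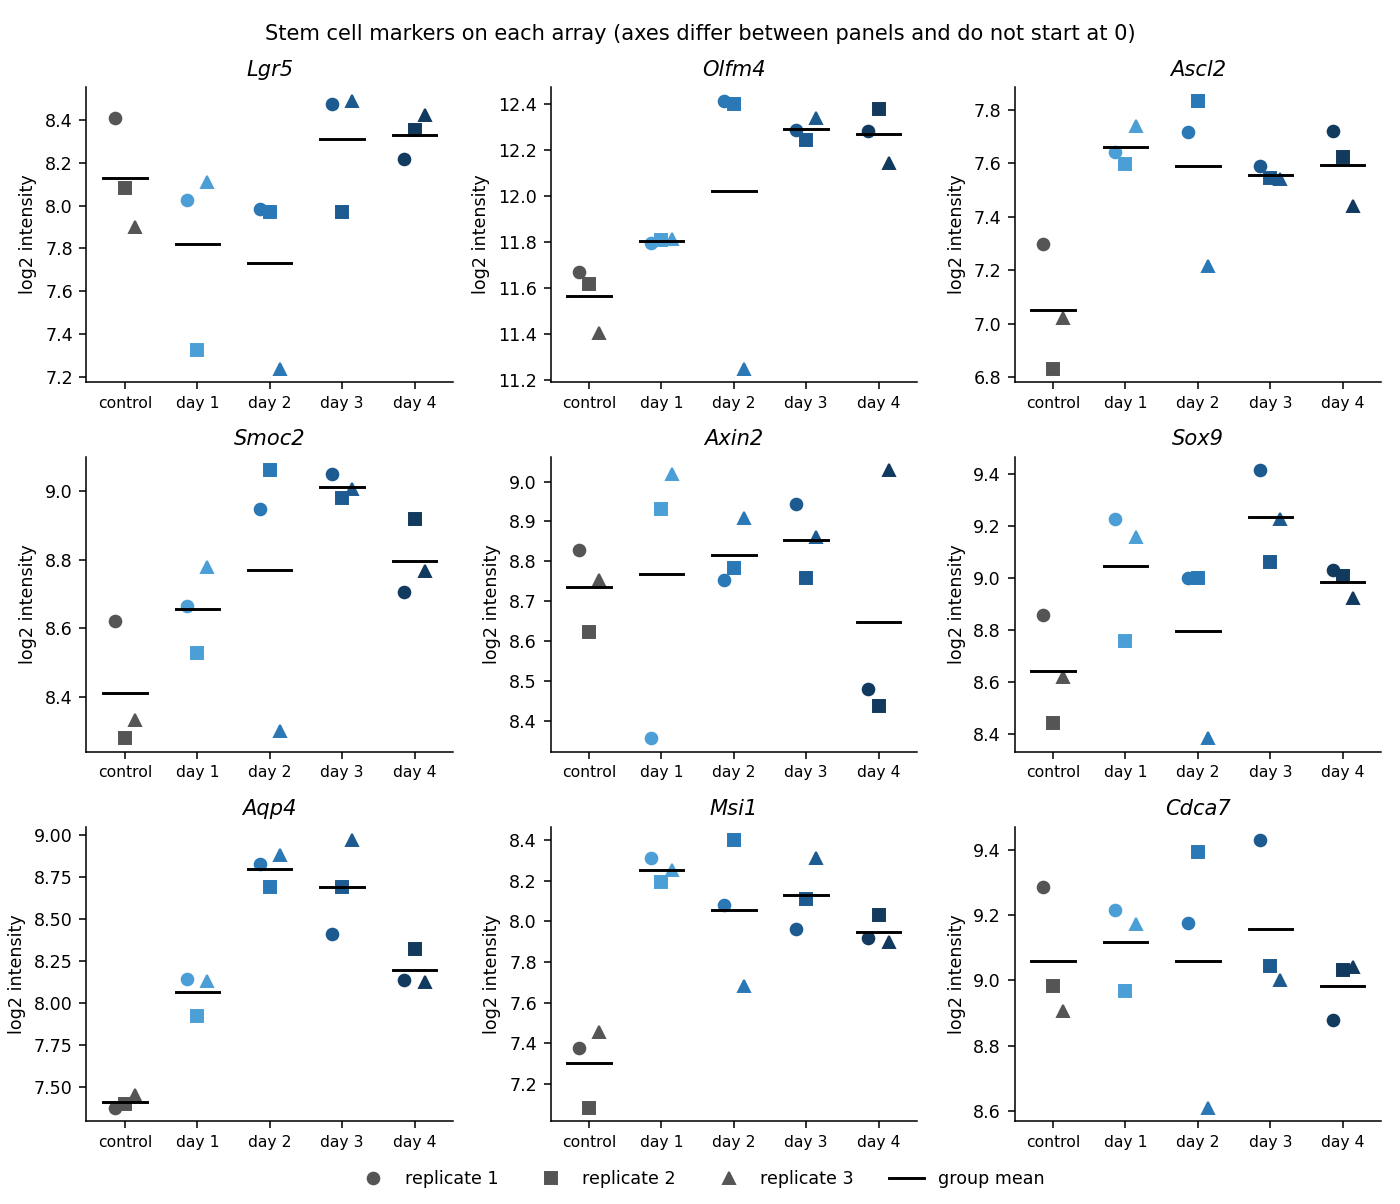
Log2 intensity of each of the 9 stem cell markers on every array, by group, with 1 point per array, the point shape giving the replicate number and the line the group mean; the axes differ between panels and do not start at 0. The Aqp4 values after RANKL all lie above its controls of 7.37 to 7.45, while the Lgr5 values of the groups overlap those of control.

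Lgr5, the R-spondin receptor that defines crypt base columnar cells, read 8.41, 8.08 and 7.90 on the control arrays in replicate order. After RANKL it read 8.03, 7.32 and 8.11 on day 1, 7.98, 7.97 and 7.24 on day 2, 8.48, 7.97 and 8.49 on day 3, and 8.22, 8.35 and 8.42 on day 4. Each RANKL group overlapped the controls. The fitted changes were -0.31, -0.40, 0.18 and 0.20 in order of day (SE 0.23), with limma adjusted p of 0.640, 0.587, 0.790 and 0.841. The 95% confidence interval of the day 2 change ran from -0.90 to 0.11, and that of day 4 from -0.30 to 0.71. In order of group mean the groups ran from day 2 (7.73) through day 1 (7.82), control (8.13) and day 3 (8.31) to day 4 (8.33), and each group overlapped its neighbours in that order. Both negative changes were nearer to 0 without 1 array. The day 1 change was -0.06 without RANKL day 1 replicate 2, and the day 2 change was -0.15 without RANKL day 2 replicate 3.

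Axin2, a scaffold of the beta-catenin destruction complex and a direct target of Wnt signalling, lay close to control on every day. Its control arrays read 8.83, 8.62 and 8.75, and its RANKL arrays ran from 8.36 to 9.02 on day 1, from 8.75 to 8.91 on day 2, from 8.76 to 8.94 on day 3 and from 8.44 to 9.03 on day 4. The groups overlapped on each day. The fitted changes were 0.03, 0.08, 0.12 and -0.09 (SE 0.17), and the limma adjusted p was 0.813 or more. The sign of the day 1 change turned with the scaling, to -0.05 when each array was centred on its median, and the day 4 change turned to 0.03. The 95% interval for day 3 was -0.24 to 0.48.

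Ascl2 read 7.30, 6.83 and 7.02 on the control arrays. It read 7.64, 7.60 and 7.74 on day 1, 7.72, 7.83 and 7.22 on day 2, 7.59, 7.54 and 7.54 on day 3, and 7.72, 7.62 and 7.44 on day 4. All arrays of days 1, 3 and 4 lay above the highest control, and on day 2 replicate 3 lay below it. The changes were 0.61, 0.54, 0.51 and 0.54 (SE 0.14), with limma adjusted p of 0.0303, 0.0764, 0.0828 and 0.138. The day 1 call was lost without control replicate 2 (0.116), control replicate 3 (0.102), RANKL day 1 replicate 1 (0.0772) or RANKL day 1 replicate 3 (0.0920), and with each array centred on its median (0.0568). Without RANKL day 2 replicate 3 all 4 days were called, with adjusted p of 0.00625, 0.00737, 0.0238 and 0.0328. That array enters the spread estimated over all groups, so leaving it out altered the p of days whose means did not change.

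Sox9, an HMG-box factor of crypt base, Paneth and some secretory progenitor cells, read 8.86, 8.44 and 8.62 in control. Its values were 9.23, 8.76 and 9.16 on day 1, 8.999, 9.001 and 8.38 on day 2, 9.41, 9.06 and 9.23 on day 3, and 9.03, 9.01 and 8.92 on day 4. The arrays of days 3 and 4 lay above all controls, and those of days 1 and 2 overlapped them. The changes were 0.41, 0.15, 0.59 and 0.35 (SE 0.17), and none was called by limma (adjusted p = 0.0827 on day 3). The day 3 change was called without RANKL day 2 replicate 3 (0.0303), when RANKL day 1 replicate 2 was left out (0.0403), and with the replicate number as a block (0.0494). Without both of those arrays the day 1 change was 0.55 and was called as well (limma adjusted p = 0.0190).

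Olfm4, a secreted glycoprotein that is abundant in crypt base cells and responds to Notch, had the widest spread of a single group. It read 11.67, 11.62 and 11.40 in control, 11.79, 11.81 and 11.81 on day 1, and 12.42, 12.40 and 11.25 on day 2. Days 3 and 4 gave 12.29, 12.25 and 12.34, and 12.28, 12.38 and 12.15. Every RANKL array lay above every control except RANKL day 2 replicate 3, which lay below all of them, and the day 2 SD was 0.67 against 0.01 on day 1 (n = 3 each). The changes were 0.24, 0.46, 0.73 and 0.71 (SE 0.22), with limma adjusted p of 0.730, 0.456, 0.108 and 0.250. Without RANKL day 2 replicate 3 the day 2 change was 0.85 (adjusted p = 0.000203), and the unchanged day 3 and day 4 changes had adjusted p of 0.000277 and 0.000685.

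Smoc2, a secreted calcium-binding matrix protein of the Lgr5 signature, read 8.62, 8.28 and 8.33 on the control arrays. After RANKL it read 8.66, 8.53 and 8.78 on day 1, 8.95, 9.06 and 8.30 on day 2, 9.05, 8.98 and 9.01 on day 3, and 8.71, 8.92 and 8.77 on day 4. Only on days 3 and 4 did all 3 arrays lie above all controls. The changes were 0.25, 0.36, 0.60 and 0.38 (SE 0.16), and the closest to the threshold was day 3 (limma adjusted p = 0.0613). That change was called without RANKL day 2 replicate 3 (0.00567), and also when RANKL day 1 replicate 2 (0.0430) or the second day 2 array (0.0490) was left out. The day 2 change was 0.59 and was called (0.0137) without RANKL day 2 replicate 3.

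Cdca7, a gene of dividing cells whose product works with a chromatin remodeller, was not called on any day. Its controls read 9.29, 8.98 and 8.91. Its RANKL arrays ran from 8.97 to 9.22 on day 1, from 8.61 to 9.39 on day 2, from 9.002 to 9.43 on day 3 and from 8.88 to 9.04 on day 4. The groups overlapped throughout, with changes of 0.06, 0.0010, 0.10 and -0.08 (SE 0.18) and limma adjusted p of 0.855 or more. The 95% interval for day 1 ran from -0.32 to 0.44. With each array centred on its median the day 1 change turned to -0.02 and the day 4 change to 0.05.

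Msi1, which marks early intestinal and neural progenitors, read 7.37, 7.08 and 7.46 in control. It read 8.31, 8.19 and 8.26 on day 1, 8.08, 8.40 and 7.68 on day 2, 7.96, 8.11 and 8.31 on day 3, and 7.92, 8.03 and 7.90 on day 4. All 12 RANKL arrays lay above all 3 controls. Msi1 rose by 0.95 on day 1 (SE 0.15, limma adjusted p = 0.00270), by 0.75 on day 2 (0.0157) and by 0.83 on day 3 (0.00957), and the day 4 change of 0.65 was not called (0.0735). In order of mean the groups ran from control (7.30) through day 4 (7.95), day 2 (8.05) and day 3 (8.13) to day 1 (8.25), and each RANKL group overlapped its neighbours. The day 1 call held in all 27 alternatives. The day 2 call was lost without control replicate 2 (0.0647), RANKL day 2 replicate 1 (0.0651) or RANKL day 2 replicate 2 (0.0675), and the day 3 call without RANKL day 3 replicate 3 (0.0606). The day 4 change was called without RANKL day 2 replicate 2 (0.0313) or replicate 3 (0.0195).

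Aqp4, a water channel found in crypt epithelium and in glia, had the tightest controls and the largest change of the 9. It read 7.37, 7.40 and 7.45 in control and 8.14, 7.92 and 8.13 on day 1. It read 8.83, 8.69 and 8.88 on day 2, 8.41, 8.69 and 8.97 on day 3, and 8.14, 8.32 and 8.12 on day 4. No RANKL array overlapped the controls, and the arrays of days 1 and 2 did not overlap each other. Aqp4 rose by 0.66 on day 1, 1.39 on day 2, 1.28 on day 3 and 0.78 on day 4 (SE 0.12), with limma adjusted p of 0.00603, 1.07e-05, 3.48e-05 and 0.00406. These are folds of 1.57, 2.62, 2.43 and 1.72. The 4 calls held under all 27 alternatives, leaving out each array among them. RANKL day 2 replicate 3, low for most of the other markers, read 8.88 here, the second highest Aqp4 value of the 15 arrays. In order of mean the groups ran from control (7.41) through day 1 (8.06), day 4 (8.19) and day 3 (8.69) to day 2 (8.80). Days 1 and 4 overlapped, as did days 3 and 2.

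**Figure D2:**
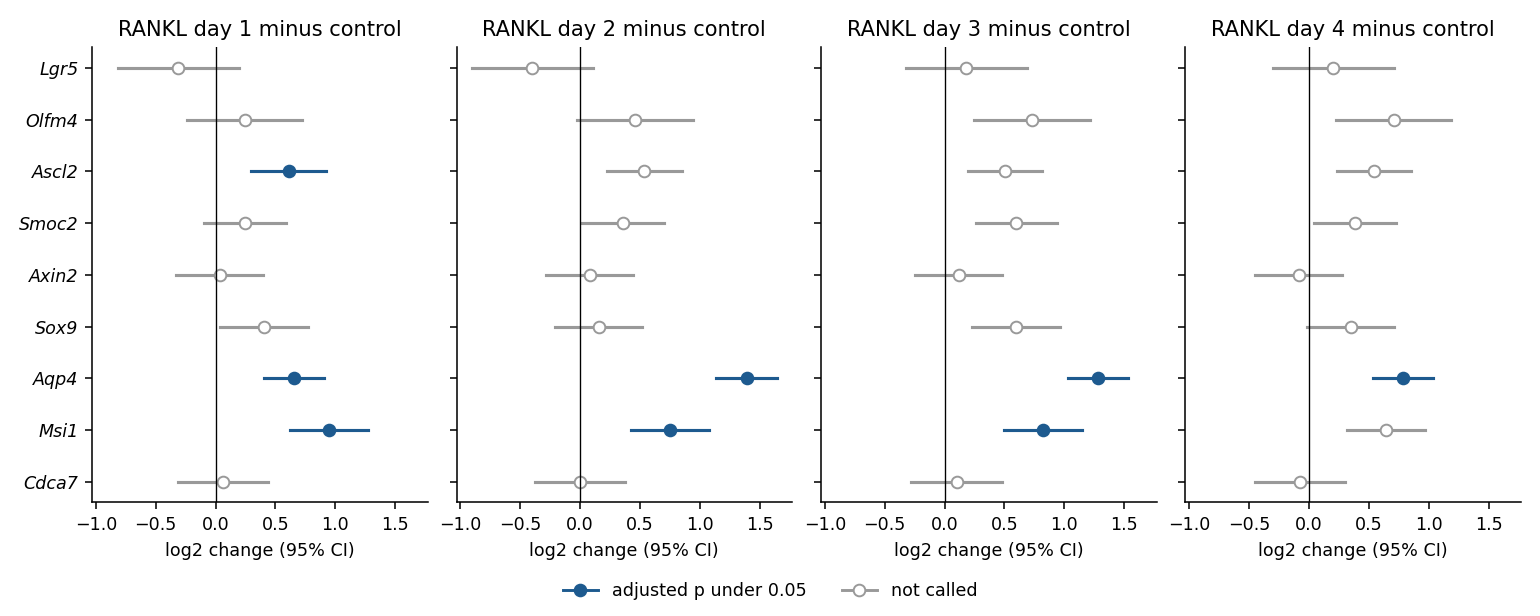
Log2 change of each stem cell marker against control on each RANKL day, with points for the fitted change and bars for its 95% confidence interval; filled blue points were called at an adjusted p under 0.05. Aqp4 is called in all 4 panels, Msi1 in the first 3 and Ascl2 only in the first, while the bars of Lgr5, Axin2 and Cdca7 cross 0 on every day.

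Between RANKL days, Aqp4 alone was called. It was 0.74 higher on day 2 than on day 1 (SE 0.12, limma adjusted p = 0.0279), where 0.201% of all genes were called in either direction. This call was lost without any 1 of the 6 arrays of those days (adjusted p of 0.0553 to 0.140) and on the values as deposited (0.0563). No marker was called for day 3 against day 2, where 0.00% of all genes were and 2 markers, Lgr5 and Sox9, had an unadjusted p under 0.05. The Lgr5 difference there was 0.58 (limma unadjusted p = 0.0272, adjusted p = 0.999). Without RANKL day 2 replicate 3 it was 0.33, and the Sox9 difference was 0.23, against 0.44 with that array. No marker was called for day 4 against day 3 either (0.0150% of all genes). Aqp4 was 0.50 lower on the log2 scale on day 4 than on day 3, with non-overlapping arrays and an adjusted p of 0.223, and it was the only marker under an unadjusted p of 0.05. That difference was called without RANKL day 3 replicate 1 (0.0450). For day 4 against day 1, 1.32% of all genes and no marker were called. Lgr5 alone had an unadjusted p under 0.05 there, at a difference of 0.51 (limma unadjusted p = 0.0471, adjusted p = 0.311). Without RANKL day 1 replicate 2 that Lgr5 difference was 0.26. Without RANKL day 2 replicate 3, 1 marker was called there, Olfm4, at 0.46 (0.0167), and Olfm4 was also called for day 2 against day 1, at 0.60 (0.0401). In that fit 1.35% and 0.0702% of all genes were called in these comparisons. These Olfm4 values were picked out after they were seen. Over all genes an unadjusted p under 0.05 was found for 6.97% in day 2 against day 1, 4.82% in day 3 against day 2, 5.46% in day 4 against day 3 and 15.8% in day 4 against day 1.

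RANKL day 2 replicate 3 was low for 7 of the 9 markers and not for Axin2 or Aqp4. Against the mean of the other 2 day 2 arrays its value differed by -1.16 for Olfm4, -0.74 for Lgr5, -0.70 for Smoc2, -0.68 for Cdca7, -0.62 for Sox9, -0.56 for Ascl2 and -0.56 for Msi1. The differences for Axin2 and Aqp4 were 0.14 and 0.12. Over all genes the median difference was 0.04, and the array was the lowest of the 15 for 3.33% of genes. It was the lowest for 5 of 7 Paneth cell markers, 12 of 26 proliferation genes, 4 of 32 other crypt base genes and 0 of 10 M cell markers. The part of these levels in the day 2 results was not tested. Without this array, 3 markers were called on day 1, 5 on day 2, 6 on day 3 and 4 on day 4, against 3, 2, 2 and 1 with it. All of these were higher, and in that fit 2.13%, 1.24%, 2.00% and 0.828% of all genes were called higher. The F test without it called Olfm4, Ascl2, Smoc2, Aqp4 and Msi1, and 3.66% of all genes. The array was singled out by its low values for these same markers. The calls gained without it are therefore no independent evidence of a rise.

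**Figure D3:**
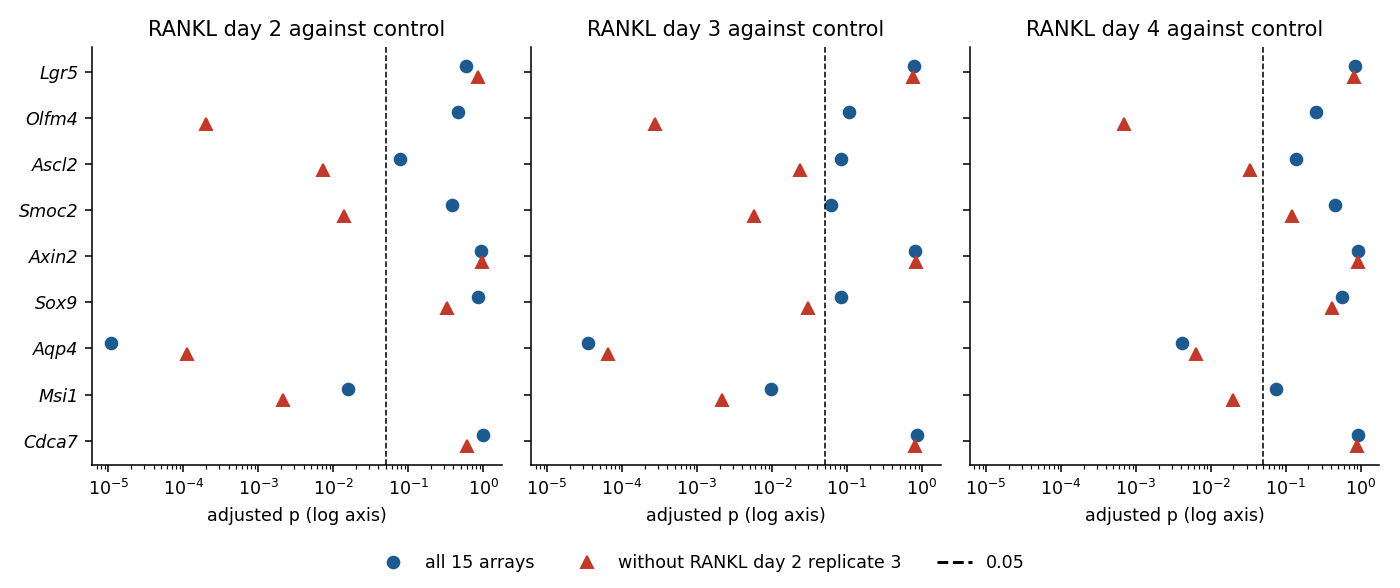
Limma adjusted p of each stem cell marker against control on RANKL days 2 to 4, on a log axis. Blue circles show all 15 arrays and red triangles the fit without RANKL day 2 replicate 3. The dashed line is 0.05. Olfm4 moves from 0.456, 0.108 and 0.250 to 0.000203, 0.000277 and 0.000685 on days 2 to 4, and Lgr5, Axin2 and Cdca7 stay to the right of the line.

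Across the 15 arrays the markers did not vary as 1 block. Pearson's r was 0.91 between Olfm4 and Smoc2, 0.90 between Ascl2 and Msi1 and 0.84 between Smoc2 and Sox9. Aqp4 had r of 0.68 with Msi1 and of -0.09 with Lgr5, and Axin2 had r between -0.13 and 0.13 with every other marker. These values describe 15 arrays that share their groups and the array that was low for most markers. Among the 9670 named genes above the median level, those most like Aqp4 were C4bp (r = 0.96), Mmp28, Fabp5 and Tnfaip2 (0.95 each) and Slc16a6 (0.94). Those most like Msi1 were Htra2, Cntnap1 and Nedd4 (0.94 each), Htr4 and Smarcc1 (0.93 each). Lgr5 was most like Enpp5 (0.92), Creb3l1 (0.91), Sdr42e1 (0.90), Auts2 (0.89) and Haus4 (0.89).

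Of 32 other crypt base genes measured, 3 rose and 1 fell on day 1, 4 rose and 1 fell on day 2, 4 rose and 1 fell on day 3, and 3 rose and none fell on day 4, with median changes of 0.01, -0.0013, 0.16 and 0.11. Of all genes, 2.00%, 1.52%, 1.72% and 0.818% were called higher on these days, and 1.94%, 1.05%, 1.24% and 0.0903% lower. Cd44, an adhesion receptor and Wnt target, rose by 2.04, 1.30, 1.23 and 0.98 (limma adjusted p = 1.02e-05 on day 1). Kcnq1, a potassium channel gene, rose by 0.82, 0.46, 0.43 and 0.56, and Cdk6, a cyclin-dependent kinase gene, rose by 0.89 on day 1. Vdr, the vitamin D receptor, fell by 0.86, 0.66 and 0.58 on days 1 to 3. Of 8 genes of reserve or regenerating stem cells, 1 was called, the secreted chaperone Clu, which rose by 1.59, 2.21, 1.40 and 0.78. The calls of Cd44, Vdr and Clu on days 1 to 3 held in each of the 27 alternatives. On day 4 the Cd44 call was lost without control replicate 2 or RANKL day 4 replicate 2, and the Clu call without any 1 control array or RANKL day 4 replicate 2 or 3.

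In the Wnt pathway, of 33 ligands, receptors and extracellular regulators, only the receptor Fzd7 was called, rising by 0.76, 0.74 and 0.64 on days 1 to 3, and the median changes of the list were -0.01, -0.08, -0.05 and -0.04. Of 20 intracellular components, only Bcl9l, a beta-catenin cofactor, was called, at 0.41 on day 1. Fzd7 made up 3.03% of its list and Bcl9l 5% of its own. Over all genes, 2.00%, 1.52%, 1.72% and 0.818% were called higher on days 1 to 4. Of 16 Wnt targets other than the 9 markers, 2, 2, 1 and 2 rose and none fell, namely Cd44, Cdk6 and Tnfrsf19. Each of these is also in the list of other crypt base genes, so these calls were already counted there. The Tnfrsf19 changes were 0.36 on day 2 and 0.42 on day 4, and 19 and 17 of 27 alternatives lost these calls.

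Among 20 Notch pathway genes, Rbpj, the DNA-binding factor of the pathway, rose by 0.71, 0.35 and 0.33 on days 1 to 3. Nrarp, a target and inhibitor of Notch, fell by 0.57 and 0.62 on days 1 and 2, and the ligand gene Dll1 rose by 0.65 on day 3. No Notch gene was called on day 4, where limma gave 4 an unadjusted p under 0.05. Shares of all genes called higher on days 1 to 4 were 2.00%, 1.52%, 1.72% and 0.818%. Those called lower were 1.94%, 1.05%, 1.24% and 0.0903%. The Nrarp call of day 1 and the Rbpj calls of days 2 and 3 were each lost in 16 or 17 of 27 alternatives, leaving out RANKL day 2 replicate 3 among them. The array holds 2 Rbpj probe sets, and these values are those of the brighter one (mean level 8.51). The dimmer one (6.05) changed by 0.09, 0.016 and 0.11, and on its own none of these was called (adjusted p = 0.816, 0.985 and 0.705). The mean of both gave 0.40, 0.18 and 0.22, called on day 1 alone (limma adjusted p = 0.0184). Among 18 genes of BMP, EGF and niche signals, Bmp4 fell by 0.69, 0.82 and 0.82 on days 1 to 3, and Bmp2 rose by 0.63 and 0.69 on days 1 and 2. The growth factor receptor gene Erbb2 fell by 0.36, 0.33 and 0.25 on days 1 to 3, and Erbb3 fell by 0.57 and 0.49 on days 2 and 3. The Bmp4 calls held in all 27 alternatives, and the Bmp2, Erbb3 and later Erbb2 calls were each lost in 6 to 18 of them. Bmp4 is also expressed by the stroma below the epithelium. Of 10 stromal markers, 1 fell on day 1, the intermediate filament gene Vim (-0.40, limma adjusted p = 0.0313), and none was called on days 2 to 4, where limma gave 1, 0 and 0 an unadjusted p under 0.05. Their median changes were -0.18, -0.21, -0.06 and 0.05 in order of day. Their summed intensity was 2196 to 3056 in control, 1831 to 2478 on day 1, 2036 to 2176 on day 2, 2214 to 2939 on day 3 and 2086 to 3157 on day 4. Their part in the Bmp4 result was not tested.

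Of 26 proliferation genes 1, 0, 2 and 0 were called higher on days 1 to 4 and none lower, where 2.00%, 1.52%, 1.72% and 0.818% of all genes were called higher. Mcm2, a subunit of the replicative helicase, rose by 0.47 on day 1 and 0.46 on day 3, and Rrm2, a ribonucleotide reductase subunit, rose by 0.41 on day 3. The median changes were 0.15, 0.18, 0.41 and 0.08. On day 3, when the stem cell markers had their highest median, 0.59, 25 of 26 had a fitted change above 0, against 46.8% of all genes. An unadjusted p under 0.05 by limma was found for 17 of them on that day, against 16.2% of all genes. The proliferation genes were read on the same arrays, so they are not 26 separate observations. None was called on day 2, where 2 had an unadjusted p under 0.05 by limma, or on day 4, where none did. Among 25 paralogs of the 9 markers, Sox8, a relative of Sox9 that is also an M cell factor, rose by 0.67, 1.17 and 0.81 on days 1 to 3, and Msi2 rose by 0.31 on day 1. Of the genes named from these lists, Kcnq1 on days 2 to 4, Fzd7 on days 2 and 3, Nrarp on day 2, and Dll1, Mcm2, Rrm2 and Msi2 each lost their call without control replicate 3, among other arrays.

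**Figure D4:**
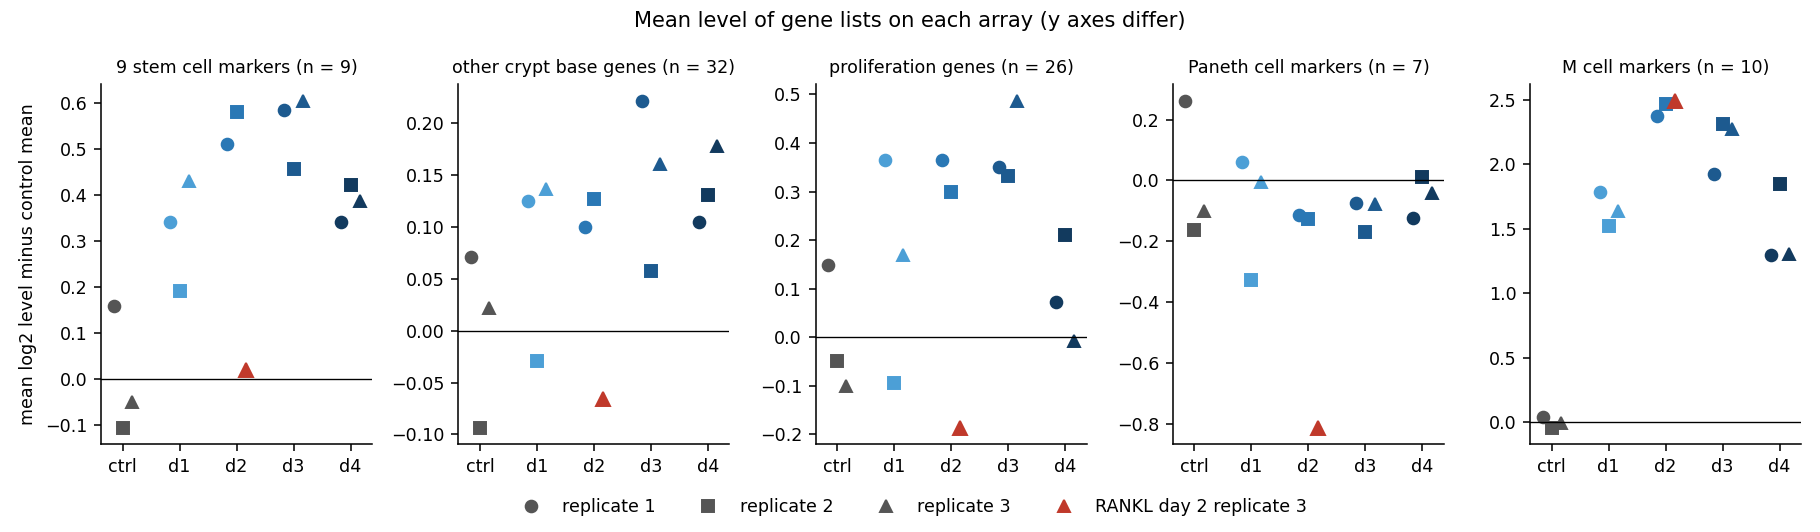
Mean log2 level of 5 gene lists on each array, as the difference from the mean of the 3 control arrays, by group, with 1 point per array and different y axes. RANKL day 2 replicate 3 (red) lies at 0.02 for the 9 stem cell markers against 0.51 and 0.58 on the other day 2 arrays, at -0.81 for Paneth cell markers, and close to the other day 2 arrays for M cell markers.

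Markers of other cell types moved on the same arrays as the stem cell markers. All 10 M cell markers rose on day 2, and 8, 9 and 8 on days 1, 3 and 4, and their summed intensity went from 1953 to 2187 in control to 12606 to 14364 on day 2, the day of the highest Aqp4 mean. Over all genes, 2.00%, 1.52%, 1.72% and 0.818% were called higher on days 1 to 4. Some genes of the M cell list may have been named from these arrays, so its counts are not independent evidence. Tnfaip2, among the genes most like Aqp4, is a member of it. The part of this list in the Aqp4 result was not tested. Aqp4 and Msi1 are also expressed by glia and neural cells. Of 6 enteric glia and neuron markers none was called by limma, with 1, 0, 0 and 0 at an unadjusted p under 0.05, and their summed intensity was 557 to 657 in control and 562 to 599 on day 2. The glial marker Gfap had a mean of 6.71 in control and 6.62 on day 2, and S100b one of 6.72 and 6.65. These markers were dim, with a mean log2 level of 6.41 to 6.63 over the list on the control arrays. The part of glia and neural cells in the Aqp4 and Msi1 results was not tested.

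Of 7 Paneth cell markers, Lyz1 alone was called, falling by 0.44 on day 2 (limma adjusted p = 0.0463). Of 7 goblet cell markers none was called by limma, with 1, 2, 1 and 0 at an unadjusted p under 0.05. Tuft cell markers were called in 0, 3, 4 and 6 of 9 and enteroendocrine markers in 0, 0, 2 and 5 of 12, all higher, and these counts were highest on days 3 and 4, when the Olfm4, Smoc2 and Sox9 arrays lay above all controls. On days 1 to 4, 2.00%, 1.52%, 1.72% and 0.818% of all genes were called higher, and 1.94%, 1.05%, 1.24% and 0.0903% lower. Of 10 enterocyte markers 1 was called, on day 2. Of 7 intraepithelial lymphocyte markers none was called by limma, with 1, 0, 0 and 4 at an unadjusted p under 0.05. Of 7 myeloid markers, the receptor gene Csf1r fell on day 1 (-0.36, limma adjusted p = 0.0458) and the integrin gene Itgam rose on day 2 (0.99, adjusted p = 0.00418), and none was called on days 3 and 4, where 1 on each day had an unadjusted p under 0.05.

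Without RANKL day 2 replicate 3, Lyz1 was no longer called on day 2, at -0.30 (limma adjusted p = 0.121), and the median day 2 change of the Paneth cell markers was -0.09 against -0.41 with it. The median day 2 change of the proliferation genes was then 0.33 against 0.18, with 1, 1, 5 and 0 of 26 called higher on days 1 to 4 and 15 at an unadjusted p under 0.05 on day 2. The other crypt base genes called higher numbered 4, 4, 7 and 3 without it, and the Wnt targets 3, 2, 5 and 2. Both lists share genes, so their counts are not separate. Without that array, 0, 2, 4 and 6 tuft cell markers were called, and 0, 0, 3 and 5 enteroendocrine ones. In that fit 2.13%, 1.24%, 2.00% and 0.828% of all genes were called higher on days 1 to 4. The enterocyte call of day 2 was also lost, as was that of Csf1r on day 1 (adjusted p = 0.0502). The part of these cell types in the stem cell marker values was not tested.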

How the data were processed

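RNA of 15 samples was measured on Affymetrix arrays. The deposited table gives 1 intensity on a linear scale per probe set (28853) and array, and per the submitters' processing notes the build is mm9. How the authors summarised, background corrected or normalized them is not given in the sources used here. The intensities were taken to log2 (pseudocount 0) and quantile normalized, since the array medians spanned 0.18 on the log2 scale. Each of 19938 genes was read by the probe set of 1 symbol with the highest mean; 5443 probe sets were not listed in the annotation and 1621 carried several symbols. All 15 arrays entered 1 linear model of group means, without a block, in limma 3.58.1 in R 4.3.3 (10 residual and 3.49 prior degrees of freedom). Tests were two-sided, with Benjamini-Hochberg adjustment over all genes within a contrast. The fit was tested on simulated data. No filter on dim genes was applied, and the number of arrays limits the precision.

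The markers and gene lists were chosen with earlier results of these data known. Genes named are the 9 markers, up to 4 called members of each list described with the largest change, and the 5 genes most like Aqp4, Msi1 and Lgr5 by Pearson's r. Alternatives were the values as deposited, median centring, an offset of 16, a filter on the dimmest 40% of genes, the mean of a gene's probe sets or each on its own, array weights, a trended robust prior, a replicate block, ordinary statistics, only the 2 groups compared, leaving out each array, and leaving out 2 arrays together.

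No label says that the replicate numbers pair the arrays, and the main fit did not pair them. Of 30 same-numbered pairs, 19 had a correlation of deviations over 0.1, with a median of 0.14 and a range from -0.20 to 0.50. These correlations do not settle whether the arrays are paired, and the fit with the replicate number as a block is given as an alternative. Promoters were taken from RefSeq, GRCm38.p6, which held 4 of the 9 markers for printing.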

Additional observations from a re-analysis of the deposited data

Results flagged for a closer look

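The change of Aqp4 against control differed between RANKL days 1 and 2, by 0.74 on the log2 scale (limma adjusted p = 0.0279). This call was lost without any single array of those days. The limma adjusted p was 0.0894 without RANKL day 1 replicate 2 and 0.140 without RANKL day 2 replicate 3. All 3 day 2 arrays, at 8.69 to 8.88, lay above all 3 day 1 arrays, at 7.92 to 8.14. Lgr5 lay above the control mean of 8.13 on all 3 arrays of day 4 and below it on all 3 of day 2. The control arrays, at 7.90 to 8.41, overlapped both groups. Of all group means, that of day 2 was the lowest and that of day 4 the highest, so this pair is the most extreme. The means of days 2 and 4 were 0.60 apart. Without RANKL day 2 replicate 3, which read 7.24, the Lgr5 mean of day 2 was 7.98, against 8.33 on day 4. That difference between days 4 and 2 was not tested.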

How the results depend on the processing

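Of 36 marker changes against control, 15 kept their direction and their side of the threshold under every alternative, the 4 of Aqp4 among them. A call was lost under some alternative for 3, gained for 11, and 7 changed sign. With weights per array, whose estimation stopped before its tolerance, 6 markers were called on day 3, 2 on day 4, 1 for day 4 against day 3 and 5 by the F test, and the Lgr5 change of day 1 was 0.026. Ordinary statistics called 1 on day 2, 0 for day 2 against day 1 and 1 by the F test. Fits of only the 2 groups compared called 1, 4 and 3 on days 2 to 4 and 0 for day 2 against day 1, where the values as deposited and median centring also gave 0. Without both RANKL day 1 replicate 2 and RANKL day 2 replicate 3, the counts were 4, 5, 6 and 4 on days 1 to 4. That fit called 0 for day 2 against day 1, 1 for day 4 against day 1 and 6 by the F test. The first of these arrays had the narrowest interquartile range. The other was singled out by its low values for these same markers, so the calls gained are no independent evidence. The share of all genes called in that fit is not given here. Leaving out each array in turn gave 1 to 5 on day 2, 1 to 6 on day 3, 1 to 4 on day 4, 1 to 5 by the F test, and 0 to 1 for day 2 against day 1, for day 4 against day 3 and for day 4 against day 1. The cause was not tested.

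The other changes of sign were of uncalled values near 0. Axin2 on day 1 was -0.0037 as deposited, -0.050 with median centring and -0.048 without the 2 arrays, with a range of -0.091 to 0.24 when each array was left out; on day 4 it was 0.027 with centring and ran from -0.28 to 0.018. Cdca7 was -0.018 on day 1 and 0.054 on day 4 with centring, and 0.017 on day 4 as deposited. Without each array it ran from -0.017 to 0.17, -0.17 to 0.23, -0.036 to 0.21 and -0.15 to 0.039 on days 1 to 4.

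With the replicate block, 3, 2, 3 and 1 markers were called on days 1 to 4, the added one being Sox9 on day 3 (limma adjusted p = 0.0494), and no other marker call changed. The block moved the count over all genes from 40 to 69 for day 2 against day 1 and from 263 to 473 for day 4 against day 1. Of the 15 arrays, 12 correlated best with their own number, where 3 numbers were possible. No label says what arrays of the same number share, and whether the numbers pair the arrays was not tested. Over all genes, 785, 513, 590 and 181 were called on days 1 to 4, with 480, 311 and 257 on days 1 to 3 after median centring and 1517, 930, 1322 and 307 with weights per array. Of the genes called on day 1, 50.7% were higher, against 37.3% with centring.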
